A study of Homo sapiens with 18 samples.

Results

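The genes described here encode heat shock proteins and co-chaperones of the cytosol and mitochondria: HSPA8, HSPA4, HSPH1, DNAJB1, BAG3, HSP90AA1, HSP90AB1, HSPB1, HSPD1 and HSPE1. They are 10 of the 18377 genes for which the array has a row annotated to a single gene symbol, and they were chosen by name, with earlier results of these data known. Each of the 10 had 1 such row, and each passed the filter on low signals. The cells were confluent ECV304 cultures, and each of 18 samples was read on its own Affymetrix Human Gene 1.0 ST array. Each of the 6 groups had 3 arrays, labelled as independent replicates. In the treated groups cells received recombinant IL-1β (interleukin-1β, a cytokine that drives inflammation) at a dose of 100 IU/ml together with aminaphtone, a naphthohydroquinone derivative used in capillary disorders, at 6 µg/ml, for 1, 3 or 6 h. In the control groups cells received IL-1β at the same dose with an equal volume of medium, for the same times. All cells, controls included, had been kept in 1% serum for 24 h beforehand, and every group carried IL-1β, so a difference between times holds the effects of IL-1β, of serum starvation and of time in culture together.

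Heat shock proteins are molecular chaperones that hold, fold or hand on other proteins, and many of their genes are switched on by heat shock factor 1 when unfolded proteins accumulate. In the cytosol, Hsp70 proteins such as HSPA8 bind clients with the help of J-domain proteins such as DNAJB1, and exchange factors such as HSPH1, HSPA4 and BAG3 release them. Hsp90 proteins finish the folding of kinases and receptors, the small heat shock protein HSPB1 holds unfolded clients in solution, and HSPD1 with its lid HSPE1 forms the chaperonin of the mitochondrial matrix. In endothelial cells Hsp90 is known as a partner of nitric oxide synthase, and HSPB1 as an actin regulator downstream of stress kinases.

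ECV304 was described as an endothelial line and is labelled here as having endothelial and epithelial characteristics. It is also known to be related to the bladder carcinoma line T24. Of 10 endothelial marker genes, PECAM1, KDR, TEK, EMCN and ERG lay below the filter. CLDN5 (mean log2 signal 7.73), CDH5 (6.99), NOS3 (6.8), TIE1 (6.4) and VWF (6.03) lay above it. The mean log2 signal over the list ranged from 5.76 to 6.1 on aminaphtone arrays and from 5.84 to 6.21 on control arrays. All 12 epithelial and urothelial markers were above the filter, with mean log2 signals from 6.51 for UPK3A to 12.38 for KRT8. KRT18 had 11.75, KRT7 had 11.36 and the rest had 8.64 (PPARG) or less. The list mean ranged from 8.15 to 8.63 on aminaphtone arrays and from 8.21 to 8.68 on control arrays. Signals of different rows are not levels that can be set against each other, so these values do not rank the lists. The leukocyte and fibroblast lists had means of 4.99 to 5.2 and 5.46 to 5.78 on aminaphtone arrays and of 5.04 to 5.3 and 5.57 to 5.78 on control arrays. Whether these markers have a part in the results was not tested.

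The 1 h control arrays stood apart from the other groups. Correlations between their 3 arrays ran from 0.964 to 0.986 over all transcript clusters (an array row, which stands for a gene), whereas the lowest correlation within any other group was 0.986. The main gradient between replicate arrays, the first principal component of the deviations from group means, held 57.6% of their variance and placed 1 h control replicate 1 at 47.4, replicate 2 at -42.9 and replicate 3 at -4.5. The other 15 arrays scored between -16.9 and 23.7. Counts and main differences that involve the 1 h controls are therefore also given without replicates 2 and 3, a choice made once these values were known. That leaves replicate 1 as the only 1 h control array, at one end of the gradient, and its spread is assumed to be that of the other groups, so calls and p-values from that fit have no replicate check in that arm. Genes that follow the gradient shift with this choice, so some differences are also given without replicate 1, the array it keeps.

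Promoter stretches are shown for 5 of the 6 genes in which a script found heat shock elements, the inverted GAA and TTC repeats that heat shock factor 1 is known to bind. Windows from 250 bases before to 50 bases after each annotated start were searched on both strands for a pair of units, GAANNTTC or TTCNNGAA, each of which reads the same on either strand, and for a run of 3 units, GAANNTTCNNGAA or its reverse complement TTCNNGAANNTTC, which contains pairs. All 10 genes matched the RefSeq promoter table (GRCh38.p14), with 16 windows between them because some have several annotated starts. A run of 3 units was found in 4 of the 10 genes, HSPA8, HSP90AB1, HSP90AA1 and HSPD1, against 0.608% of the 27305 genes in the table. A pair was found in 6 genes, these 4 with DNAJB1 and HSPB1, against 16.2% of all genes. The 250 bases before the start that carries the match are printed 5′ to 3′ on the gene's strand. Capitals mark the runs of 3 units in the first 4 genes and the pairs of units in DNAJB1, which is added because its transcript had the widest range of group means of the 10.
HSPA8 (chr11:123062137-123062386, strand minus): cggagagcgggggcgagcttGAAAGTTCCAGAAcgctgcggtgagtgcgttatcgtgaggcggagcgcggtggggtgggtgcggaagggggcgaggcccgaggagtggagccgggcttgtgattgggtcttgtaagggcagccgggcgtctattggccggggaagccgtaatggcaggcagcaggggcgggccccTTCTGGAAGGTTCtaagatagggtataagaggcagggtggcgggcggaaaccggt
HSP90AB1 (chr6:44247693-44247942, strand plus): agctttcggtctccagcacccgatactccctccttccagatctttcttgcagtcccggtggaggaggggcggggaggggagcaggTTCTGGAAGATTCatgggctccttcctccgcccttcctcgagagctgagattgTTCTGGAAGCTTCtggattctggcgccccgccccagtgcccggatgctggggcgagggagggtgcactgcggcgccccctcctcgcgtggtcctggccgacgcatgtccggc
HSP90AA1 (chr14:102087045-102087294, strand minus): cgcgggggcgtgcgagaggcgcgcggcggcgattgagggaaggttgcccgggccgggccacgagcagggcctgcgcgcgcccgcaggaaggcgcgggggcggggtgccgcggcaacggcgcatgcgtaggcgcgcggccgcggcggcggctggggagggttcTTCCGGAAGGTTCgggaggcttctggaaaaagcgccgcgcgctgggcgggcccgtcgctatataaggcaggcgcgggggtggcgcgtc
HSPD1 (chr2:197499841-197500090, strand minus): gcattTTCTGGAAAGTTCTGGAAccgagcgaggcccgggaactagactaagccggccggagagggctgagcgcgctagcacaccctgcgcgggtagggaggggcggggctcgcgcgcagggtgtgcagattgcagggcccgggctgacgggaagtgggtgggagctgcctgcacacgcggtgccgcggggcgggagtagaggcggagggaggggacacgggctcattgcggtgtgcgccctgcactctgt
DNAJB1 (chr19:14518398-14518647, strand minus): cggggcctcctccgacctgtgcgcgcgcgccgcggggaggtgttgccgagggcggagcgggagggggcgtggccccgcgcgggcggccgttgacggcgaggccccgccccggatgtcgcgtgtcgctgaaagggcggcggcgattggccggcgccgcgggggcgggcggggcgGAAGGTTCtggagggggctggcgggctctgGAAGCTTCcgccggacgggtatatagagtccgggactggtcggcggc
HSPA8 and HSP90AB1 each held 2 runs of 3 units. The HSPA8 runs lay at -230 to -218 and -55 to -43 from its start, and the HSP90AB1 runs at -165 to -153 and -112 to -100. In HSP90AA1 the run lay at -88 to -76 of the second annotated start, and in HSPD1 overlapping runs covered -245 to -228 of the second. HSPD1 and HSPE1 are head-to-head neighbours whose nearest annotated starts are separated by 104 bases. The windows of HSPA4, HSPH1, HSPE1 and BAG3 held no match to these letters. A match is a description of the letters in the window and was not measured as a binding site.

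**Figure D1:**
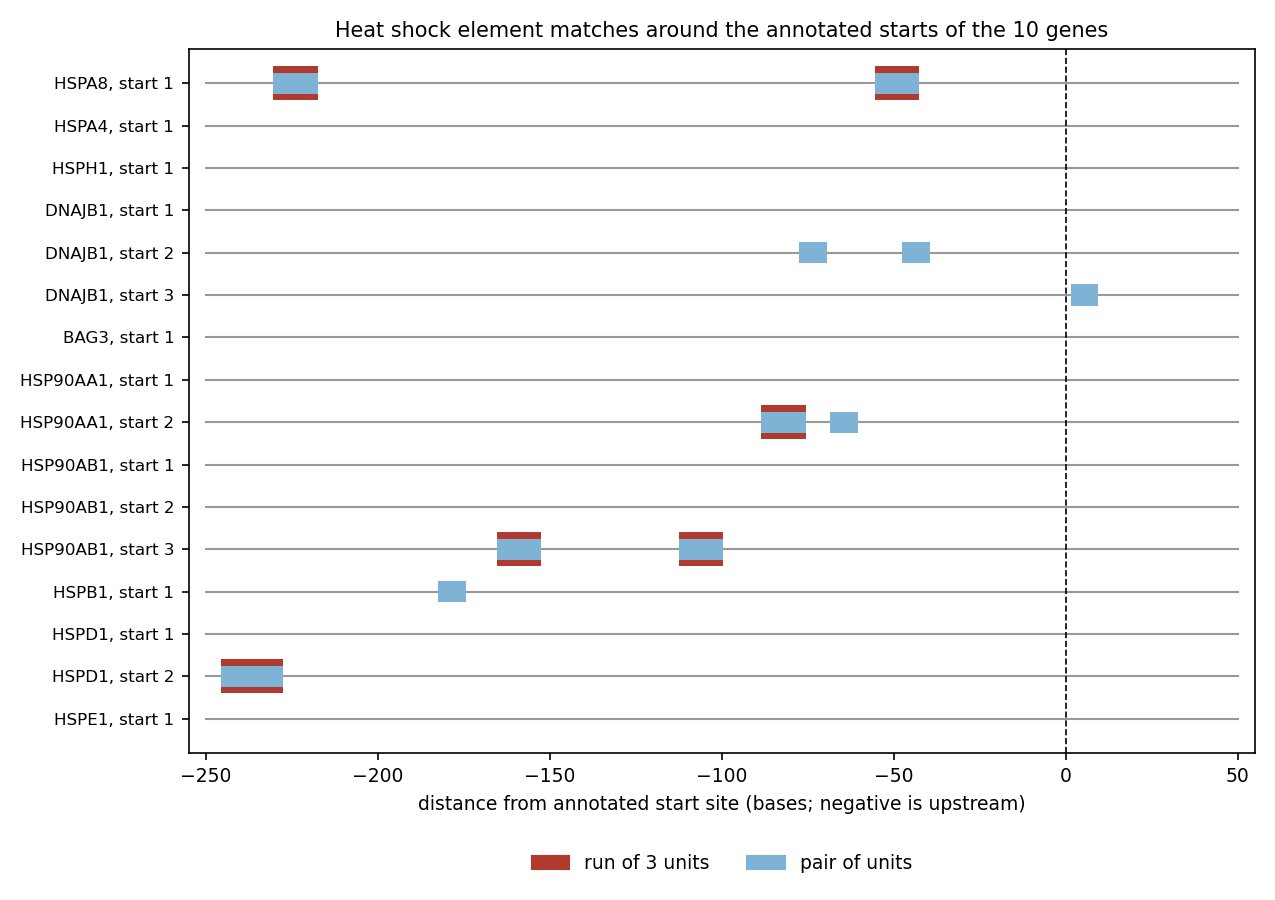
Positions of heat shock element matches in the 16 promoter windows of the 10 genes, by distance in bases from each annotated start (0, dashed line). Red boxes are runs of 3 units and blue boxes pairs of units; runs are present in 1 window each of HSPA8, HSP90AA1, HSP90AB1 and HSPD1.

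At 1 h, 8 of the 10 genes had a higher mean with aminaphtone than in control cells, but none passed the test over all genes. The test was limma's moderated test in a single fit to all 18 arrays, with p-values adjusted by the Benjamini-Hochberg method over 17853 transcript clusters and a threshold of 0.05. It called 0.084% of transcript clusters in this comparison. At an unadjusted p under 0.05, 7 of the 10 genes were higher and 1, HSPB1, was lower, where 28.9% of all transcript clusters had such a p, 16.4% higher and 12.5% lower. The median log2 difference of the 10 genes was 0.37, against -0.096 over all transcript clusters. At 3 h none was called or had an unadjusted p under 0.05 (0.028% and 6.35% of all transcript clusters). At 6 h none was called (0.101%) and 1, HSPE1, was lower at an unadjusted p under 0.05 (3.87%, of which 2.26% lower). Averaged over the times none was called (0.751%), and 4 had an unadjusted p under 0.05 (18.5%). For the interaction of treatment and time none was called (0.0336%), with 6 at an unadjusted p under 0.05 (8.65%), so no difference in the aminaphtone effect between times was shown.

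The 1 h comparison turned on the 1 h control arrays. Arrays of equal replicate number deviated together at 1 h and were taken as pairs. The arrays are labelled as independent replicates, and the pairs were read from these same values. The p-values that use the pairs therefore follow a choice made after seeing the data. With the pairs as a block, DNAJB1 (adjusted p = 0.0165), HSPD1 (0.0375), HSP90AA1 (0.0404) and HSPH1 (0.0428) were higher with aminaphtone, and 12.4% of all transcript clusters were called. Without 1 h control replicate 1, 8 of the 10 were called, 7 higher and HSPB1 lower, while 48.2% of all transcript clusters were called. Against 1 h control replicate 1 alone none was called (0.0336% of all transcript clusters). The log2 differences were then 0.06 for HSPH1, 0.13 for HSPD1, 0.15 for HSP90AA1, -0.01 for HSPA4, 0.12 each for HSPA8 and HSP90AB1, 0.11 for HSPE1, 0.16 for BAG3 and -0.05 for HSPB1, but 1.21 for DNAJB1. Without replicate 1 instead, they were 1.25 for HSPH1, 1.04 for HSPD1, 0.8 for HSP90AA1, 0.63 for HSPA4 and 0.69 for DNAJB1. Averaged over the times, DNAJB1 (0.42), HSP90AB1 (0.17), HSPA8 (0.12) and HSPE1 (-0.13) had an unadjusted p under 0.05, and the other 6 genes lay between -0.09 and 0.18. The lowest adjusted interaction p of the 10 was 0.537, for HSPD1.

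**Figure D2:**
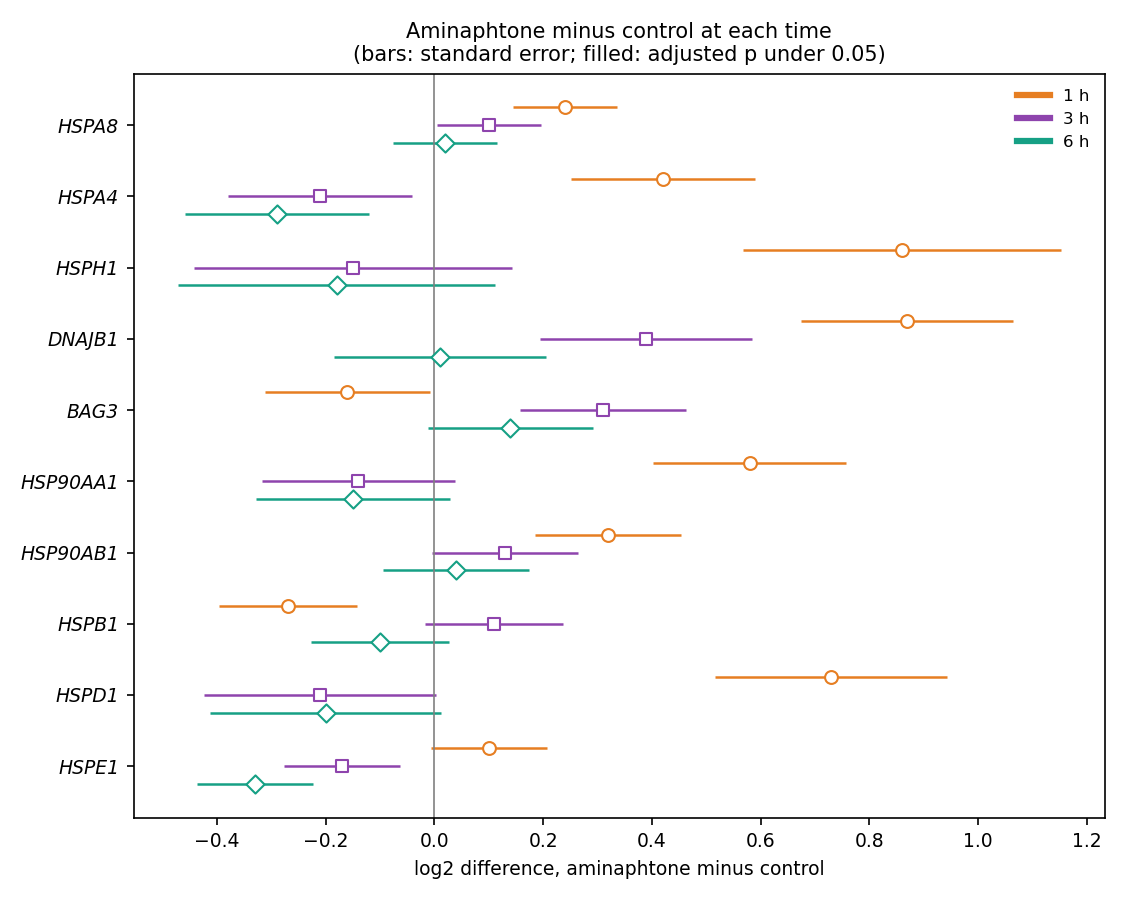
Log2 difference of aminaphtone minus control at 1, 3 and 6 h for each of the 10 genes, with standard errors from the fit. Every symbol is open, since no difference reached an adjusted p under 0.05; at 1 h DNAJB1 (0.87), HSPH1 (0.86) and HSPD1 (0.73) lie furthest to the right.

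Between 6 and 1 h in control cells, 8 of the 10 genes changed, 6 upwards and 2 downwards, in a comparison that called 23.7% of all transcript clusters. HSPH1, HSPD1, HSP90AA1, HSP90AB1, HSPA4 and HSPA8 rose (10% of all transcript clusters were called higher) and DNAJB1 and HSPB1 fell (13.7% were called lower). Without 1 h control replicate 1 the log2 differences were 1.79 for HSPH1, 0.98 for HSPD1, 0.76 for HSP90AA1, 0.72 for HSPA4 and -1.02 for DNAJB1. Against 1 h control replicate 1 alone, 1 of the 10 was called, HSPB1, beside 13% of all transcript clusters. In aminaphtone cells 2 of the 10 were called between 6 and 1 h, against 15.4% of all transcript clusters (9.86% lower), and these were DNAJB1 and HSPB1, both lower at 6 h. Between 3 and 1 h, 1 gene was called in aminaphtone cells, BAG3, which rose (9.44% of all transcript clusters, 4.51% higher). In control cells 2 were called (11.3%), HSPH1, which rose (4.26%), and HSPB1, which fell (7.07%). Between 6 and 3 h, 1 was called in aminaphtone cells, DNAJB1, which fell (0.235%, 0.213% lower), and none in control cells (0.459%). At an unadjusted p under 0.05, DNAJB1 and HSPB1 (log2 -0.31) were lower in control cells (9.44%, 4.41% lower). In aminaphtone cells DNAJB1, HSPB1 (log2 -0.52) and BAG3 (-0.47) were lower at that unadjusted p (9.31%, 7.16% lower). The comparisons with control cells at 1 h share those arrays with the treatment comparison at 1 h, and so are not independent of it.

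**Figure D3:**
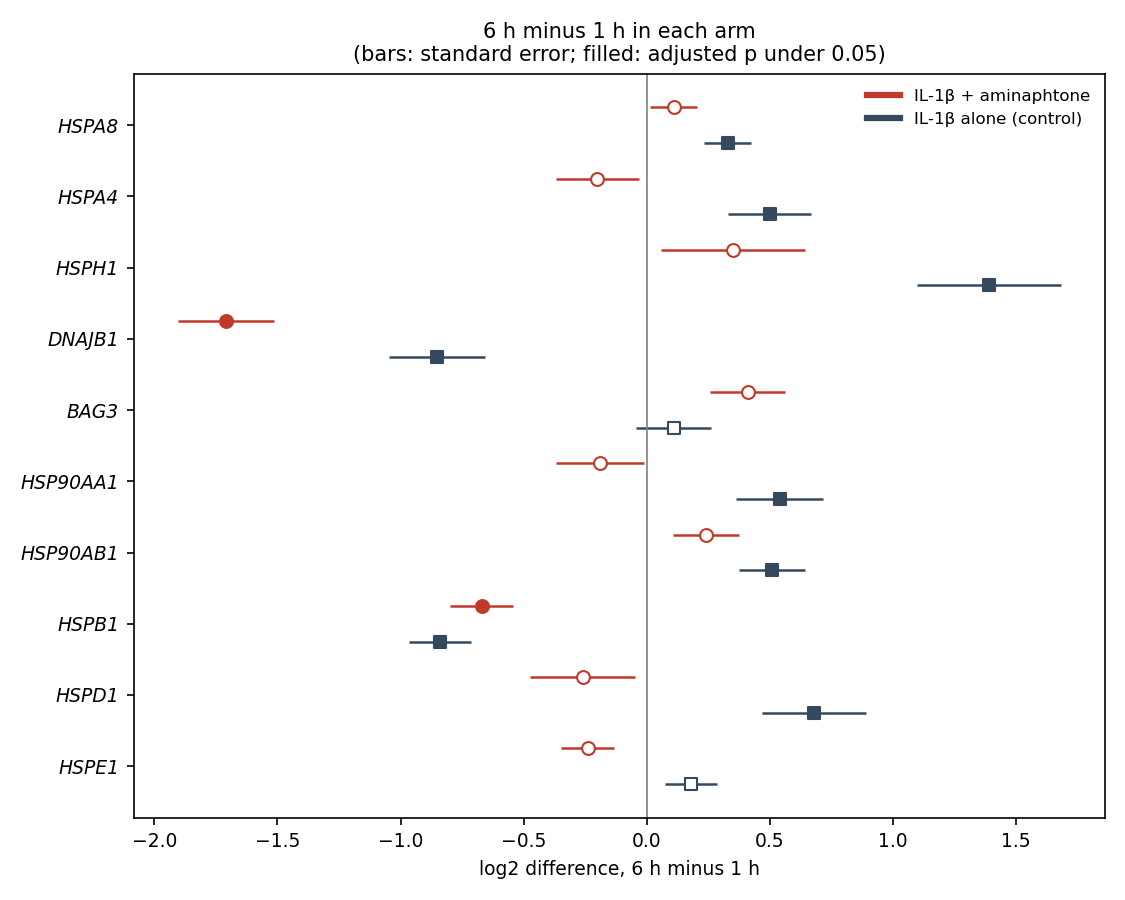
Log2 difference of 6 h minus 1 h in aminaphtone cells (red) and in control cells (dark), with standard errors from the fit; filled symbols have an adjusted p under 0.05. DNAJB1 and HSPB1 lie left of 0 with filled symbols in both arms, and 6 genes lie right of 0 with filled symbols in control cells.

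DNAJB1 encodes a J-domain protein that delivers clients to Hsp70 and stimulates its ATPase. Its log2 signals were 10.45, 10.40 and 10.68 on the 1 h aminaphtone arrays, against 9.29, 9.87 and 9.76 on the 1 h control arrays. At 3 h they were 9.85, 10.36 and 9.73 with aminaphtone and 9.18, 9.98 and 9.61 in control cells, and at 6 h 8.93, 8.71 and 8.77 with aminaphtone and 8.86, 8.79 and 8.74 in control cells. All 1 h aminaphtone arrays lay above all 1 h control arrays, the groups overlapped at 3 h, and at 6 h the means were equal to 2 decimals. Groups did not overlap at 1 h for 4 of the 10 genes, DNAJB1, HSPA8, HSP90AB1 and, by a margin under the rounding of its values, HSP90AA1, against 13% of all transcript clusters (all 4 higher with aminaphtone, against 5.31%). At 3 h no gene of the 10 was so separated, against 12.6%. The log2 difference at 1 h was 0.87 (SE 0.195; 10.51 ± 0.148 with aminaphtone and 9.64 ± 0.305 in control cells, SD, n = 3 each; limma adjusted p = 0.104), the lowest adjusted p of the 10 genes in this comparison. At 3 h it was 0.39 (SE 0.195, adjusted p = 0.811). Averaged over the times the log2 difference was 0.42 (SE 0.112), with a limma adjusted p of 0.0942. The adjusted p was 0.0183 with arrays of equal replicate number as a block at every time. At 3 and 6 h, unlike 1 h, the deviations of such arrays did not all correlate above 0.1. Without 1 h control replicate 1 it was 0.0293. Those 2 fits called 4.3% and 19.1% of all transcript clusters, against 0.751% in the main fit. DNAJB1 passed in 3 of 27 fits, with a highest adjusted p of 0.188, without 1 h aminaphtone replicate 3.

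DNAJB1 fell with time in both arms. In aminaphtone cells it was 3.26-fold lower at 6 h than at 1 h (log2 difference -1.71, SE 0.195, limma adjusted p = 1.96e-05), a call that held without each of the 18 arrays in turn. From 3 to 6 h it was 2.26-fold lower (log2 -1.18, adjusted p = 0.0206), and this call was lost without 3 h aminaphtone replicate 1 or 2, or without any one of the 6 h aminaphtone arrays (highest adjusted p = 0.203). In control cells it was 1.8-fold lower at 6 h than at 1 h (log2 -0.85, SE 0.195, adjusted p = 0.0051), without each array in turn as well. Against 1 h control replicate 1 alone that difference was -0.50 (adjusted p = 0.222). The 6 h minus 1 h difference in aminaphtone cells less that in control cells was -0.86, with a limma adjusted interaction p of 0.566, and -1.21 with 1 h control replicate 1 alone. From 3 to 6 h DNAJB1 was 1.735-fold lower in control cells (log2 -0.79, limma adjusted p = 0.088), which did not pass.

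BAG3 encodes an Hsp70 exchange factor that couples chaperones to selective autophagy. Its log2 signals were 9.10, 9.14 and 9.43 on the 1 h aminaphtone arrays and 9.06, 9.59 and 9.52 on the 1 h control arrays. At 3 h they were 10.18, 10.24 and 9.89 with aminaphtone and 9.57, 9.97 and 9.85 in control cells, and at 6 h 9.75, 9.61 and 9.55 with aminaphtone and 9.58, 9.55 and 9.36 in control cells. Both arms had their highest mean at 3 h, and the arms overlapped at all 3 times. In aminaphtone cells BAG3 was 1.84-fold higher at 3 h than at 1 h (log2 0.88, SE 0.152; 10.1 ± 0.185 and 9.22 ± 0.182, SD, n = 3 each; limma adjusted p = 0.00125), with and without each array in turn. In control cells the 3 h minus 1 h difference was 0.41 (SE 0.152, adjusted p = 0.0948), which did not pass, and it was 0.74 against 1 h control replicate 1 alone. At 6 h minus 3 h the differences were -0.47 with aminaphtone (adjusted p = 0.267) and -0.30 in control cells (adjusted p = 0.585).

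HSPH1, the large Hsp70 relative that releases nucleotide from Hsp70, had the widest spread between replicate arrays of the 10 genes (within-group SD 0.409). Its log2 signals were 10.18, 9.93 and 9.86 on the 1 h aminaphtone arrays, against 9.93, 8.40 and 9.07 on the 1 h control arrays. At 3 h they were 10.12, 9.75 and 10.68 with aminaphtone and 10.70, 9.99 and 10.29 in control cells, and at 6 h 10.14, 10.38 and 10.51 with aminaphtone and 10.61, 10.47 and 10.50 in control cells. The 1 h controls thus held the lowest values, on replicates 2 and 3, whereas replicate 1 reached the level of the aminaphtone arrays. The 1 h difference was 0.86 (SE 0.292, limma adjusted p = 0.148). In control cells HSPH1 was 2.62-fold higher at 6 h than at 1 h (log2 1.39, SE 0.292; 10.53 ± 0.076 and 9.14 ± 0.766, SD, n = 3 each; adjusted p = 0.0028) and 2.29-fold higher at 3 h than at 1 h (log2 1.19, adjusted p = 0.0137). The 6 h call held without each array in turn, but against 1 h control replicate 1 alone the difference was 0.60 (adjusted p = 0.194). The 3 h call was lost without 1 h control replicate 2 (adjusted p = 0.0588) or 3 h control replicate 1 (0.0879), and against 1 h control replicate 1 alone the difference was 0.40 (0.434). In aminaphtone cells the 6 h minus 1 h difference was 0.35 (adjusted p = 0.473). The aminaphtone effect at 6 h less that at 1 h was -1.04 (limma interaction test, adjusted p = 0.566), and -0.25 with 1 h control replicate 1 alone.

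HSPA4 is a second exchange factor of the Hsp110 type. Its log2 signals were 10.78, 10.68 and 10.50 on the 1 h aminaphtone arrays and 10.66, 10.04 and 10.00 on the 1 h control arrays. At 3 h they were 10.26, 10.20 and 10.73 with aminaphtone and 10.73, 10.49 and 10.58 in control cells, a log2 difference of -0.21. At 6 h they were 10.28, 10.53 and 10.53 with aminaphtone and 10.64, 10.79 and 10.77 in control cells. All 6 h control arrays lay above all 6 h aminaphtone arrays, with a log2 difference of -0.29 (SE 0.169, limma adjusted p = 1.0). This was 1 of 3 genes with such separation at 6 h, beside HSPD1 and HSPE1, where 15.2% of all transcript clusters were separated, 7.06% with aminaphtone lower. In control cells HSPA4 was 1.42-fold higher at 6 h than at 1 h (log2 0.50, SE 0.169, adjusted p = 0.0393). The call was lost in 8 of the 18 fits that left out 1 array and with each array centred on its median (adjusted p = 0.0523), and the difference was 0.07 (adjusted p = 0.831) against 1 h control replicate 1 alone.

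HSPA8, the constitutive Hsp70 of the cytosol, had a mean log2 signal of 13.64 over the 18 arrays. Its log2 signals were 13.65, 13.58 and 13.67 on the 1 h aminaphtone arrays and 13.51, 13.20 and 13.47 on the 1 h control arrays. At 3 h they were 13.75, 13.69 and 13.76 with aminaphtone and 13.66, 13.53 and 13.70 in control cells, a log2 difference of 0.10. At 6 h they were 13.71, 13.79 and 13.72 with aminaphtone and 13.76, 13.71 and 13.70 in control cells. The arms were separated at 1 h, with a log2 difference of 0.24 (SE 0.096, limma adjusted p = 0.15), and overlapped at 6 h. In control cells HSPA8 was 1.25-fold higher at 6 h than at 1 h (log2 0.33, SE 0.096, adjusted p = 0.0202). The call was lost without 1 h control replicate 2 (adjusted p = 0.0801) and without 6 h control replicate 1 (0.0687) or 3 (0.0518), and the difference was 0.21 (adjusted p = 0.264) against 1 h control replicate 1 alone.

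HSP90AA1 and HSP90AB1, the inducible and the constitutive cytosolic Hsp90, differed in their spread. HSP90AA1 had log2 signals of 12.11, 11.98 and 11.83 on the 1 h aminaphtone arrays and 11.83, 11.11 and 11.24 on the 1 h control arrays. HSP90AB1 had 12.51, 12.46 and 12.50 on the 1 h aminaphtone arrays and 12.37, 11.78 and 12.36 on the 1 h control arrays. In both genes the lowest value was that of 1 h control replicate 2. The 1 h differences were 0.58 for HSP90AA1 (SE 0.178, limma adjusted p = 0.148) and 0.32 for HSP90AB1 (SE 0.134, adjusted p = 0.156). At 3 h HSP90AA1 had 11.71, 11.47 and 12.05 with aminaphtone and 12.07, 11.76 and 11.83 in control cells, and HSP90AB1 had 12.74, 12.55 and 12.63 with aminaphtone and 12.59, 12.31 and 12.62 in control cells. The arms overlapped, with log2 differences of -0.14 and 0.13. At 6 h HSP90AA1 had 11.53, 11.88 and 11.94 with aminaphtone and 11.93, 11.98 and 11.89 in control cells, and HSP90AB1 had 12.74, 12.68 and 12.76 with aminaphtone and 12.70, 12.66 and 12.69 in control cells, so that both overlapped. In control cells HSP90AA1 was 1.46-fold higher at 6 h than at 1 h (log2 0.54, adjusted p = 0.035) and HSP90AB1 1.43-fold higher (log2 0.51, adjusted p = 0.0107). The HSP90AB1 call held without each array in turn, and the HSP90AA1 call was lost in 5 of the 18 fits, with an adjusted p of 0.15 without 1 h control replicate 2. Against 1 h control replicate 1 alone the differences were 0.11 for HSP90AA1 (adjusted p = 0.758) and 0.32 for HSP90AB1 (adjusted p = 0.136).

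HSPB1, the small heat shock protein Hsp27, fell over time. Its log2 signals were 11.96, 12.10 and 12.10 on the 1 h aminaphtone arrays and 12.10, 12.36 and 12.51 on the 1 h control arrays. At 3 h they were 11.89, 12.04 and 11.77 with aminaphtone and 11.55, 11.93 and 11.90 in control cells, and at 6 h 11.39, 11.46 and 11.29 with aminaphtone and 11.54, 11.55 and 11.35 in control cells. The 6 h arrays lay below the 1 h arrays in both arms. HSPB1 was 1.59-fold lower at 6 h than at 1 h in aminaphtone cells (log2 -0.67, SE 0.127; 11.38 ± 0.083 and 12.05 ± 0.084, SD, n = 3 each; limma adjusted p = 0.00155). It was 1.79-fold lower in control cells (log2 -0.84, SE 0.127; 11.48 ± 0.11 and 12.32 ± 0.208; adjusted p = 0.000238). Both calls held without each array in turn, and in control cells the difference was -0.62 against 1 h control replicate 1 alone. At 3 h the control mean was already 1.44-fold below that at 1 h (log2 -0.53, adjusted p = 0.0123), a call lost without 1 h control replicate 3 (0.0687), without 3 h control replicate 1 (0.0778) and against 1 h control replicate 1 alone (log2 -0.31, 0.279). The 1 h difference between arms was -0.27 (SE 0.127, adjusted p = 0.172).

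HSPD1 and HSPE1, the barrel and the lid of the mitochondrial chaperonin, did not vary alike although they are neighbours in the genome. HSPD1 had log2 signals of 11.41, 11.19 and 11.00 on the 1 h aminaphtone arrays and 11.07, 9.95 and 10.36 on the 1 h control arrays. HSPE1 had 9.36, 9.64 and 9.35 on the 1 h aminaphtone arrays and 9.34, 9.38 and 9.33 on the 1 h control arrays. At 3 h HSPD1 had 10.59, 10.57 and 11.07 with aminaphtone and 11.11, 10.86 and 10.90 in control cells, and at 6 h 10.72, 11.07 and 11.04 with aminaphtone and 11.09, 11.19 and 11.14 in control cells. HSPD1 was thus lowest on 1 h control replicates 2 and 3 and at aminaphtone level on replicate 1, while HSPE1 was nearly flat over the same arrays.

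The 1 h difference of HSPD1 was 0.73 (SE 0.213; 11.2 ± 0.203 with aminaphtone and 10.46 ± 0.566 in control cells, SD, n = 3 each; limma adjusted p = 0.148), and that of HSPE1 was 0.10 (SE 0.107, adjusted p = 0.484). In control cells HSPD1 was 1.6-fold higher at 6 h than at 1 h (log2 0.68, SE 0.213, adjusted p = 0.0285). The call was lost in 5 of the 18 fits that left out 1 array, each without a 6 h control array or without 1 h control replicate 2 or 3 (highest adjusted p = 0.151), and against 1 h control replicate 1 alone the difference was 0.07 (0.848). At 3 h HSPE1 had log2 signals of 9.35, 9.07 and 9.26 with aminaphtone and 9.46, 9.39 and 9.33 in control cells, with overlap and a log2 difference of -0.17. At 6 h it had 9.17, 9.27 and 9.17 with aminaphtone and 9.46, 9.68 and 9.46 in control cells. Those arms did not overlap, with a log2 difference of -0.33 (SE 0.107; 9.21 ± 0.057 with aminaphtone and 9.53 ± 0.126 in control cells; adjusted p = 0.769). The HSPE1 control mean at 6 h differed from that at 1 h by 0.18 (adjusted p = 0.252). Over the 18 arrays the correlation of HSPD1 with HSPE1 was 0.34, and 0.10 for deviations from group means.

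**Figure D4:**
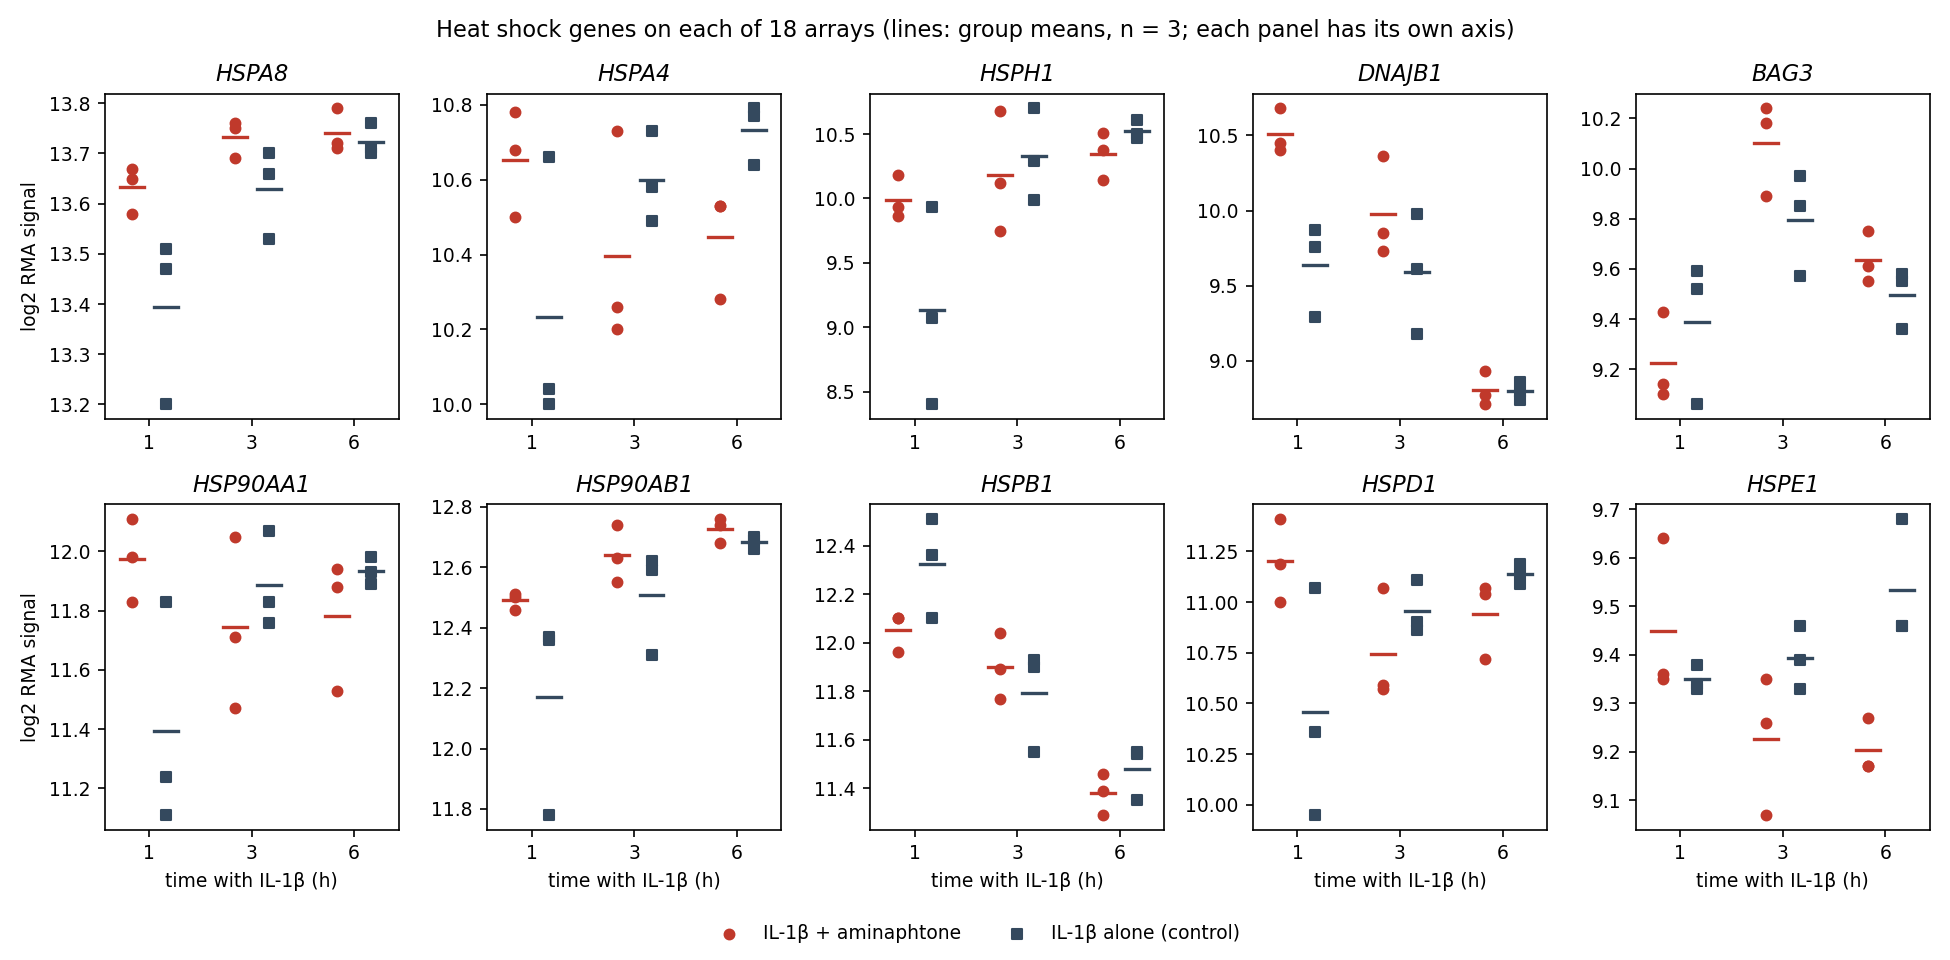
Log2 RMA signal of the 10 genes on each of the 18 arrays by time (h), aminaphtone in red and control in dark, with lines at group means (n = 3); each panel has its own axis. DNAJB1 and HSPB1 are lowest at 6 h in both arms, BAG3 is highest at 3 h, and 1 h control arrays hold the lowest values of HSPA8, HSPA4, HSPH1, HSP90AA1, HSP90AB1 and HSPD1.

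The 6 genes that rose in control cells varied together over the arrays. Their 15 pairwise correlations over 18 arrays ran from 0.45 to 0.96, with the closest pairs HSPA8 with HSP90AB1 (0.96), HSP90AA1 with HSPD1 (0.95) and HSPA4 with HSP90AA1 (0.94). For deviations from group means they ran from 0.34 to 0.95. The 6 genes were grouped by their rise on these same arrays, which by itself makes correlations over the 18 arrays more positive. DNAJB1 and HSPB1 correlated at 0.76 with each other, and HSPH1 with HSPB1 at -0.80. BAG3 and DNAJB1 correlated at 0.05 over all arrays but at 0.87 for deviations from group means. These values describe 18 arrays that share groups, times and the array gradient, and carry no test.

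The same genes also followed the gradient between replicate arrays. Over the 18 arrays, the correlation of the deviation from the group mean with the gradient was 0.95 for HSPD1, 0.92 for HSPH1, 0.87 for HSP90AA1 and 0.86 for HSPA4, and 0.85, 0.81, 0.81 and 0.83 without 1 h control replicates 1 and 2. HSPA8 and HSP90AB1 had 0.72 and 0.64, which became 0.32 and 0.13 without those arrays. BAG3 had -0.84, DNAJB1 -0.67 and HSPB1 -0.65, and HSPE1 had -0.12. The gradient was computed from all tested transcript clusters, these genes included, so the values are a description with no test. The part of the gradient in the 1 h differences was not tested.

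**Figure D5:**
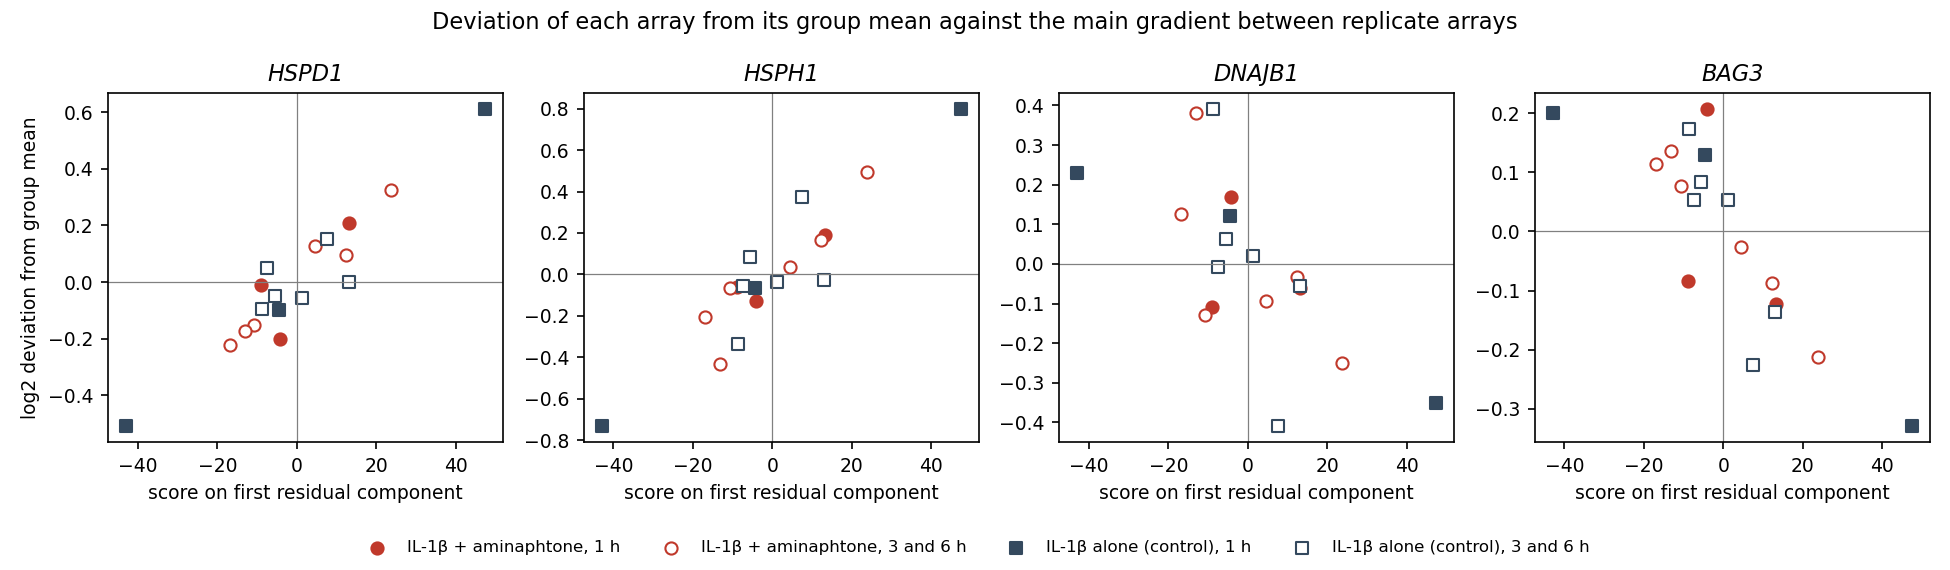
Log2 deviation of each array from its group mean against its score on the main gradient between replicate arrays, for HSPD1, HSPH1, DNAJB1 and BAG3; circles are aminaphtone arrays, squares control arrays, and filled symbols are 1 h arrays. HSPD1 and HSPH1 rise along the gradient and DNAJB1 and BAG3 fall, with 1 h control replicates 1 (score 47.4) and 2 (score -42.9) at the ends.

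Other genes of the chaperone network were taken from 10 lists of 112 genes, of which 101 were tested and none is among the 10 genes above. None of the 101 was called for aminaphtone against control at 1, 3 or 6 h, averaged over the times or in the interaction. HSF1, the heat shock factor that drives the response, had a log2 difference of -0.43 at 1 h (limma adjusted p = 0.148), and HSPA5 and HSP90B1, the Hsp70 and Hsp90 of the endoplasmic reticulum, had 0.63 and 0.60 (adjusted p = 0.148 each). Against 1 h control replicate 1 alone these differences were -0.10 for HSF1, 0.24 for HSPA5 and -0.04 for HSP90B1. HSPA1A and HSPA1B, the stress-inducible Hsp70 genes, share array rows and were not analysed here.

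Between 6 and 1 h in control cells 32 of the 101 were called, 26 higher and 6 lower, a share of 31.7% against 23.7% of all transcript clusters (10% higher and 13.7% lower). Of 14 genes of the TRiC chaperonin, which folds actin and tubulin, and of its partner prefoldin, 7 rose. Log2 differences were 0.72 for TCP1, 0.61 for CCT2 and 0.52 for CCT4. Against 1 h control replicate 1 alone they were 0.34, 0.38 and 0.29. Of 13 J-domain genes 5 rose, among them DNAJA1 (1.09) and DNAJB6 (0.81, or 0.44 against 1 h control replicate 1 alone), and DNAJB4 fell by 2.08. Of 13 co-chaperone genes 5 rose, among them CHORDC1 (1.17), PPID (0.82) and the Hsp90 co-chaperone PTGES3 (0.56). Against 1 h control replicate 1 alone CHORDC1 had 0.66 and PPID 0.15. Of 15 mitochondrial genes 3 rose, among them the matrix Hsp70 HSPA9 (0.96) and its exchange factor GRPEL1 (0.86), and the mitochondrial Hsp90 TRAP1 fell by 0.55. Of 5 small heat shock genes CRYAB fell by 1.18 and HSPB8 by 0.80. Of 14 endoplasmic reticulum genes 4 rose, among them HSPA5 (0.88) and HSP90B1 (0.71). Of 7 further Hsp70 and Hsp110 genes HSPA12A rose (0.24) and HSPA1L fell by 0.46. Of 6 BAG and exchange factor genes BAG5 rose (0.61), and of 5 genes for heat shock factors and their regulators HSF4 fell by 0.37. Of 9 further targets of heat shock factor 1 none was called. Against 1 h control replicate 1 alone, 13 of the 101 were called, 8 higher and 5 lower (12.9%, against 13% of all transcript clusters). In that fit PTGES3 (0.54, limma adjusted p = 0.0393) and GRPEL1 (0.70, 0.0123) were higher and DNAJB4 (-2.99, 5.93e-06) and CRYAB (-0.91, 0.0411) lower, whereas TCP1 had 0.34 (0.22), DNAJA1 0.59 (0.0703), HSPA9 0.32 (0.361), HSPA5 0.48 (0.0725) and HSP90B1 0.07 (0.868). The targets DEDD2 (0.69) and CRYZ (-0.94) were called in that fit, which has 1 array in its 1 h arm, and not in the fit of all 18 arrays.

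In aminaphtone cells 11 of the 101 were called between 6 and 1 h, 5 higher and 6 lower, or 10.9% against 15.4% of all transcript clusters. DNAJB4 fell by 2.38 on the log2 scale (limma adjusted p = 4.52e-05), BAG2, an Hsp70 exchange factor, by 0.88 and TRAP1 by 0.75, while DNAJB6 rose by 0.70 and CDC37, which brings kinases to Hsp90, by 0.44. Of 9 further heat shock factor 1 targets 4 were called, DEDD2 (0.63) and ZFAND2A (0.44) higher, and CRYZ (-1.11) and SERPINH1 (-0.61) lower; ZFAND2A was added after its value was seen. Between 3 and 1 h 6 were called in aminaphtone cells, 5.94% of the lists against 9.44% of all transcript clusters, among them DNAJB4 (-1.62), BAG2 (-0.68) and CDC37 (0.45). In control cells 7 were called between 3 and 1 h, 6.93% of the lists against 11.3% of all transcript clusters, among them DNAJB4 (-1.95), DNAJA1 (1.01) and CCT2 (0.57), and 3 against 1 h control replicate 1 alone (2.97% against 8.78%). In the fit without 1 h control replicates 2 and 3, which leaves the aminaphtone means as they are and changes the estimated spread, 19 of the 101 were called between 6 and 1 h, 18.8% against 25.7% of all transcript clusters, and 14 between 3 and 1 h, 13.9% against 18.1%.

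Among 15576 other tested genes, those whose log2 signal over the 18 arrays was most like the mean of the 10 genes, each centred on its own mean, were TRA2B (Pearson r = 0.889), PSPC1 (0.886), CCNT1 (0.88), CHAC2 (0.879) and RTRAF (0.875). Without 1 h control replicates 2 and 3 these correlations were 0.671, 0.787, 0.586, 0.718 and 0.668. The values describe likeness over these arrays only and carry no test.

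RMA gives 1 signal per row, so differences were tested within a gene, and signals of different rows are not levels that can be set against each other. HSPA8, HSP90AA1, HSP90AB1, HSPD1 and HSPE1 have near-identical processed copies in the genome, and signal from those copies cannot be told apart from that of the genes.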

How the data were processed

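Total RNA of 18 ECV304 samples was hybridised to Affymetrix Human Gene 1.0 ST arrays, 1 array per sample. The authors deposited 1 log2 signal for each transcript cluster, made with RMA in Affymetrix Expression Console, per the submitters' processing notes. RMA corrects background, equalises the arrays' distributions and summarises probes. The software version, the genome build and which arrays were normalised together are not given in the sources used here. Array medians ran from 6.926 to 7.055.

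Of 28869 transcript clusters, 21062 were annotated, 19310 with 1 gene symbol and 1752 with several. Annotated clusters with a mean log2 above 5.523, the 25th percentile of all, were tested (17853). The gene set took the row with the highest mean for each symbol. Group means were fitted with limma 3.58.1 in R 4.3.3 to all 18 arrays, with 12 residual and 4.857 prior degrees of freedom, two-sided, with no replicate block and Benjamini-Hochberg adjustment. The procedure was tested on simulated data with independent normal noise of equal spread in all groups. Those data held no gradient between arrays and no wider 1 h control group, so the simulation does not cover these. The p-values rest on 1 spread per transcript cluster, pooled over the replicate arrays of all 6 groups, and 3 arrays per group limit the precision. For control 6 h against 1 h, HSPH1 had an SE of 0.292, although its SD was 0.766 in 1 h controls and 0.076 in 6 h controls. With only the arrays of that comparison in the fit, 3 of the 10 genes were called in place of 8.

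The naming rule took all 10 genes (given as counts and ranges where few moved), up to 3 called genes per list and comparison by p, the fixed genes HSF1, HSPA5 and HSP90B1, and the 5 genes most like the set. The 10 genes and the lists were chosen with earlier results of these data known. Deviations from group means of arrays with the same replicate number correlated at 0.726, 0.406 and 0.292 between the 1 h arms, and at 0.268, 0.327 and 0.239 between 3 h and 1 h controls. These were taken as pairs, a choice made from the same values. In the other comparisons not all pairs correlated above 0.1. Promoter windows came from RefSeq (GRCh38.p14).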

Additional observations from a re-analysis of the deposited data

How the results depend on the processing

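The number of the 10 genes called was recomputed without a filter, with a stricter filter, with a trended robust variance, with centred arrays, with a replicate block, with the gradient as a covariate, in fits of only the arrays compared and without each array in turn. The gradient was built from the same deviations and its scores sum to 0 in each group, so as a covariate it leaves every difference as it is and only removes spread. With it the calls numbered 8 for aminaphtone against control at 1 h (42.4% of all transcript clusters), 2 averaged over times (25.7%), 6 in the interaction (20.4%), 8 for control 3 h against 1 h (33.3%), 1 for control 6 h against 3 h (7.84%), and 3 (25.7%), 3 (8.95%) and 5 (34.3%) for aminaphtone 3 h against 1 h, 6 h against 3 h and 6 h against 1 h. With the replicate block within each time, which uses the pairing, they numbered 4 at 1 h (12.4%) and 1 averaged over times (4.3%); the block common to all groups left 2 for control 3 h against 1 h and moved no other count by over 1.5 times. With only the arrays compared they numbered 0 for control 3 h against 1 h (1.24%) and 3 for control 6 h against 1 h (6.1%). Without both 1 h control replicates 2 and 3, chosen after seeing the data and leaving 1 array in that group, they numbered 1 for control 3 h against 1 h (8.78%), 1 for control 6 h against 3 h (2.17%), 1 for control 6 h against 1 h (13%), 3 for aminaphtone 3 h against 1 h (18.1%) and 2 for aminaphtone 6 h against 3 h (2.01%). The cause of the other shifts was not tested.

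Without each array in turn, the calls ranged from 0 to 8 for aminaphtone against control at 1 h (8 without 1 h control replicate 1), 0 to 0 at 3 h and at 6 h, 0 to 1 averaged over times and 0 to 4 in the interaction (1 and 4 also without that array). They ranged from 0 to 7 for control 3 h against 1 h (0 without 3 h control replicate 1, 7 without 1 h control replicate 1), 0 to 1 for control 6 h against 3 h and 4 to 8 for control 6 h against 1 h (4 without 1 h control replicate 2 or 6 h control replicate 1 or 3), and from 1 to 2, 0 to 2 and 2 to 3 for aminaphtone 3 h against 1 h, 6 h against 3 h and 6 h against 1 h. Of 860 log2 differences of single genes that an alternative changed at all, 35 uncalled ones turned in sign and 0 called ones did. The number of arrays, 3 per group, limits the precision.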
